A study of Mus musculus with 16 samples.

Results

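The genes described here belong to 8 families that move membrane-bound cargo in cells: Rab GTPases, Rab partner proteins named after them, kinesins (Kif), cytoplasmic dynein (Dync), dynactin (Dctn), vacuolar protein sorting genes (Vps), sorting nexins (Snx) and syntaxins (Stx). They were taken by symbol alone, without regard to their values, and numbered 124 genes with 189 probes, of 9026 named genes on the array. The families held 39 Rab GTPases, 5 Rab partners, 22 kinesins, 5 dynein subunits, 4 dynactin subunits, 20 Vps genes, 19 sorting nexins and 10 syntaxins. A single probe stood for 74 of the genes, and 50 had 2 to 4 probes.

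Brain and liver RNA came from 4 male C57BL/6J mice heterozygous for HdhQ111 at 18 weeks of age, a knock-in allele that lengthens the CAG repeat of mouse huntingtin (Htt). Each RNA was co-hybridised on 2-colour cDNA arrays with pooled RNA of 4 wildtype males, matched in strain, age and tissue. A dye-swapped pair of arrays per mouse and tissue made 16 in all. Arrays with the mutant RNA labelled in Cy5 are called Cy5 arrays here, and the others Cy3 arrays. The pool counts as 1 control sample, so the spread among wildtype mice is not in any error given here, and all mice of a tissue share that pool. The allele is carried in every cell, and whole-tissue RNA was used, so fewer cells of a type and less RNA per cell cannot be told apart. Htt itself had no named probe in the analysis, so the targeted gene could not serve as a check of the labels.

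Membrane cargo is carried along microtubules by kinesins, most of which walk towards the plus end, and by dynein with its activator dynactin, which walk towards the minus end. Rab GTPases mark each compartment and recruit motors and tethers, Vps complexes and sorting nexins sort cargo in endosomes, and syntaxins are SNARE proteins that drive fusion of the vesicle with its target membrane. Huntingtin is known to bind dynein and, through huntingtin-associated protein 1 (Hap1), dynactin and kinesin, and to promote vesicle transport in neurons, which is why these families were compared in a mouse with an altered huntingtin.

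All values are log2 ratios, likely HdhQ111 over wildtype. The sign was inferred from the order of the channels in the labels, base 2 was assumed, and no file header states either. A value of a mouse is the mean of its dye-swapped arrays, and means are given with the SD over mice. Higher and lower refer to a mean above or below 0. Gene names rest on a shift of 11 rows between the annotation and the values, which was found in these data and is stated by no source. With that shift, pairs of probes of the same gene at least 50 rows apart correlated over the mouse values by 0.043 on average (2959 pairs). The average was -0.0022 without the shift and at most 0.024 at the other offsets of 121 tried. For this check only, arrays were centred on their median and the mean of each tissue was removed. For the 65 probe pairs within the transport families the average was 0.083, which ranked 15 among the offsets, so these families alone do not single out the shift.

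No gene of the 8 families passed limma's test in either tissue after Benjamini-Hochberg adjustment over all named genes. In brain 0 of 123 tested passed, beside 3 of all 8567 named genes (0.035%), and in liver 0 of 123 passed, beside 0 of 8803 (0%). The smallest adjusted p among the transport genes was 0.999 in brain and 0.575 in liver, for several genes each. At an unadjusted limma p under 0.05 there were 3 transport genes in brain, where 3.92% of all named genes lay, and 9 in liver, where 8.24% lay. Of the 3 in brain, 1 was higher and 2 were lower (1.89% and 2.03% of all named genes), and of the 9 in liver, 2 were higher and 7 lower (3% and 5.24%). Neither count was a larger share than that of the whole array. Dync1i1 was not tested in brain and Kif2a not in liver, each with values in only 2 mice there.

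How precisely a change was measured depends on the spread between mice. The median SD of a transport gene was 0.28 in brain and 0.22 in liver, and over all named genes it was 0.28 and 0.23. The 95% confidence interval of limma reached a median of 0.35 to each side of the mean in brain and 0.28 in liver. These intervals are not adjusted for the number of genes, so larger means than these need not pass. The lowest brain mean of a transport gene, -0.67, did not pass. Vamp8, a gene outside the families, was at -1.81 in brain with an adjusted limma p of 0.835. In brain 69 transport genes were higher and 54 lower (43.9% lower, against 43.3% of all named genes), and in liver 52 were higher and 71 lower (57.7% lower, against 56.6%). The median of the transport genes was 0.011 in brain and -0.027 in liver, and that of all named genes was 0.023 and -0.030.

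Signs that were shared by all mice were few. In brain 6 transport genes (Kif1c, Kifc2, Rab24, Snx10, Snx11 and Vps4a) were above 0 in every mouse with a value, where 6.58% of all named genes were. A further 2, Kif18b and Rab25, were below 0 in every brain, where 4.66% of all named genes were. In liver 8 were above 0 in every mouse (7.2% of all named genes) and 17 below (14.1%). These 17 were Kif18b, Kif1c, Snx3, Snx14, Snx19, Vps29, Vps35l, Vps37c and 9 Rab GTPases, namely Rab2a, Rab2b, Rab3a, Rab3d, Rab5a, Rab10, Rab12, Rab14 and Rab43.

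**Figure D1:**
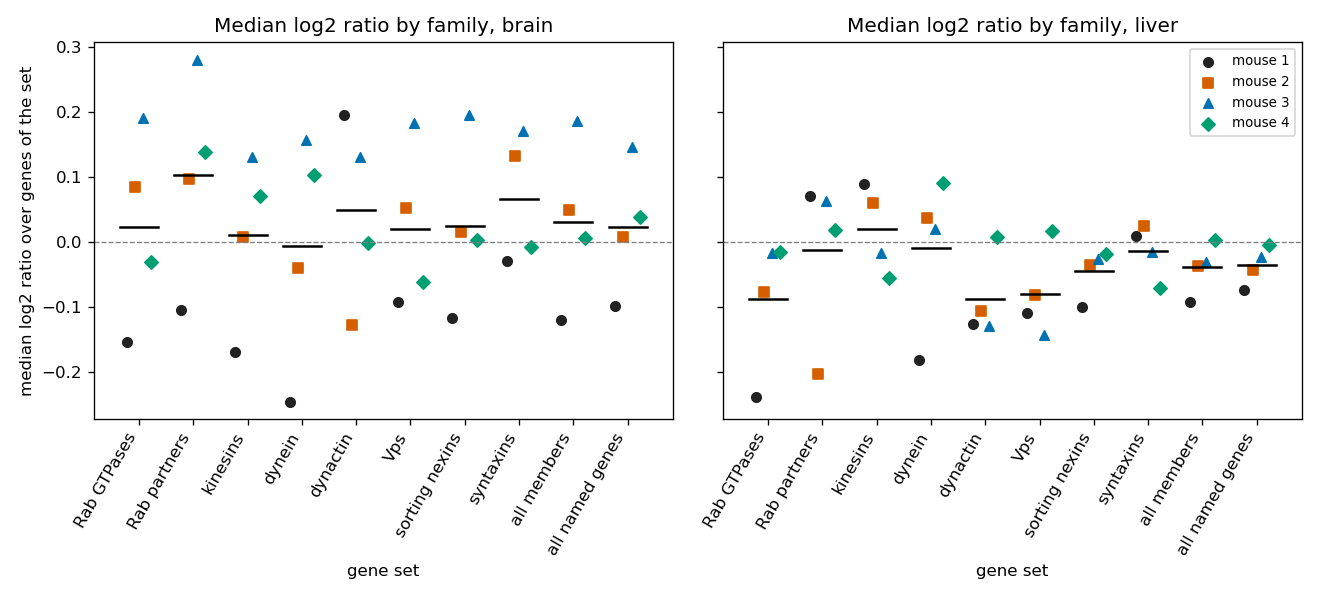
Median log2 ratio (likely HdhQ111 over wildtype) over the genes of each family in each mouse, in brain (left) and liver (right), with all transport genes ("all members") and all named genes at the right of each panel; points are mice and bars are the mean of the 4 mice. In brain the families lie low in mouse 1 and high in mouse 3 along with all named genes, except dynactin, which is at 0.20 in mouse 1.

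In brain most family medians followed the level of the whole array in each mouse. The median over all named genes was -0.098, 0.008, 0.15 and 0.039 in mice 1 to 4. The Rab GTPases were at -0.15, 0.085, 0.19 and -0.031, the kinesins at -0.17, 0.009, 0.13 and 0.072, and the sorting nexins at -0.12, 0.017, 0.20 and 0.003 in the same order. Mouse 1 was the lowest and mouse 3 the highest for each of these families and for all named genes, so the shift is not particular to transport genes. Dynactin had another order in brain, with 0.20, -0.13, 0.13 and -0.0016, on 4 genes.

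Averaged over the brains of the 4 mice, the family medians lay between -0.0056 ± 0.18 (SD, n = 4 mice) for dynein and 0.10 ± 0.16 for the Rab partners. All named genes were at 0.024 ± 0.10 by the same measure. With each mouse set relative to its own median over all named genes, a choice made after the data were seen, the brain families ran from -0.029 ± 0.091 for dynein to 0.080 ± 0.060 for the Rab partners, while the Rab GTPases, the kinesins and the Vps genes changed sign, to -0.0007, -0.013 and -0.0027. By that measure the Rab partners were the only family in brain farther from 0 than 1 SD.

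In liver the lowest family medians belonged to dynactin (-0.088 ± 0.064), the Rab GTPases (-0.086 ± 0.11) and the Vps genes (-0.079 ± 0.069), and that of all named genes was -0.035 ± 0.029. All 4 dynactin genes, 16 of 20 Vps genes (80%) and 25 of 39 Rab GTPases (64.1%) were lower, against 56.6% of all named genes. Relative to the array of each mouse, these 3 families remained below 0, at -0.053 ± 0.049, -0.044 ± 0.058 and -0.051 ± 0.078. The liver medians of the Rab GTPases and the Vps genes were above 0 (0.020 and 0.028) on the Cy5 arrays, and the Rab GTPases were at -0.23 on the Cy3 arrays. The Rab GTPases rested mostly on mouse 1, with -0.24, -0.077, -0.016 and -0.015 in mice 1 to 4, and without that mouse their mean was -0.036. The liver arrays of mouse 1 had the widest spread over all probes. Their interquartile ranges were 0.867 and 1.275, against 0.383 to 0.728 on the other liver arrays.

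Kinesins had the highest liver median, 0.020 ± 0.067, and mice 1 to 4 were at 0.09, 0.061, -0.016 and -0.054. The other liver families lay between -0.045 ± 0.038 for the sorting nexins and -0.008 ± 0.12 for dynein, and relative to the array of each mouse dynein (0.027), the Rab partners (0.023) and the syntaxins (0.023) were above 0. Taken over genes instead of mice, the median of the gene means had the opposite sign for dynein in both tissues (0.039 in brain, 0.015 in liver), for the Vps genes in brain (-0.029), and for the Rab partners (0.061) and sorting nexins (0.025) in liver. Where a family lay this near 0, its sign depended on how the median was taken.

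The liver-minus-brain difference of each gene was tested next, since each tissue had its own wildtype pool. Of 122 transport genes measured in both tissues, 0 passed limma's test, beside 2 of all 8483 named genes (0.0236%), and the smallest adjusted p was 0.677. With the mouse as a block, 0 of 121 passed and the smallest adjusted p was 0.685. An unadjusted limma p under 0.05 was found for 2 transport genes, Rab24 and Kif1c, where 7.21% of all named genes had one. With the block it was again 2, where 7.09% of all named genes had one. The median difference was -0.061, and 73 of the 122 were lower in liver, against -0.048 and 57.4% for all named genes.

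Across the 122 genes the brain and liver means were unrelated (Spearman's rho 0.024, and -0.039 over all 8483 named genes). The points share mice and array type, and genes are not independent replicates. Kif1c was the only transport gene above 0 in every brain and below 0 in every liver, a pattern of 1.05% of all named genes. No transport gene had the reverse pattern, which 0.377% of all named genes had. Kif18b was the only transport gene on the same side of 0 in all brains and livers, as 1.1% of all named genes were.

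**Figure D2:**
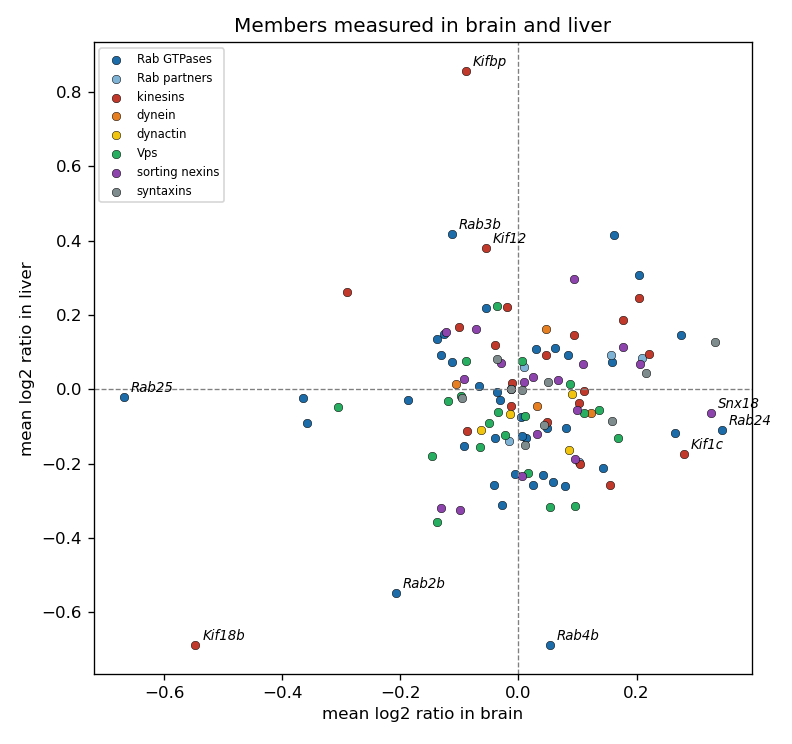
Mean log2 ratio in brain (x axis) against liver (y axis) for the 122 transport genes measured in both tissues, coloured by family; some points far from the centre are labelled. The cloud is centred near 0 on both axes with no slope (Spearman's rho 0.024), and Kif18b lies at -0.55 in brain and -0.69 in liver.

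Rab24 and Kif1c had the smallest p for the tissue difference. Rab24 is an atypical Rab linked to autophagy, and Kif1c is a plus-end motor that carries dense-core vesicles and other cargo. Rab24 was at 0.17, 0.42, 0.40 and 0.39 in the brains of mice 1 to 4 and at -0.22, -0.16, -0.13 and 0.068 in their livers. All brains lay above all livers, which choosing genes by this p favours. The share of all named genes with such a separation was not counted. The difference was -0.46 (95% confidence interval -0.77 to -0.15), with an adjusted limma p of 0.677, or 0.685 with the mouse block. Its mean in brain, 0.35 ± 0.12, was 0.73 on the Cy5 arrays and -0.035 on the Cy3 arrays. In liver it was at 0.15 on the Cy5 arrays and -0.38 on the Cy3 arrays.

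Kif1c was at 0.49, 0.35, 0.11 and 0.18 in brain and at -0.33, -0.17, -0.11 and -0.099 in liver. No brain value overlapped the livers here either. Kif1c was chosen by the same p, which favours such a separation, and its share among all named genes was not counted. The difference was -0.46 (-0.78 to -0.13), with the same adjusted p values. Both probes of Kif1c had the same signs, with brain means of 0.43 and 0.13 and liver means of -0.24 and -0.11. In brain Kif1c was at 0.50 on the Cy5 arrays and 0.066 on the Cy3 arrays, and in liver at -0.043 and -0.31. Mouse 1 had the largest value in each tissue, and without it the difference was -0.34.

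The start regions of these 2 genes are shown because they lead the brain-to-liver comparison. They run from 250 bases before to 50 bases after the start in RefSeq's annotation of mouse GRCm38.p6, and are written 5′ to 3′ on the strand of the gene. A script searched both strands for the E-box CACGTG and the GC box GGGCGG, with CCGCCC as its other strand. The motifs do not overlap, and matches are in capitals. The Rab24 region lies at chr13:55321931-55322230 on the minus strand and the Kif1c region at chr11:70700298-70700597 on the plus strand.
Rab24: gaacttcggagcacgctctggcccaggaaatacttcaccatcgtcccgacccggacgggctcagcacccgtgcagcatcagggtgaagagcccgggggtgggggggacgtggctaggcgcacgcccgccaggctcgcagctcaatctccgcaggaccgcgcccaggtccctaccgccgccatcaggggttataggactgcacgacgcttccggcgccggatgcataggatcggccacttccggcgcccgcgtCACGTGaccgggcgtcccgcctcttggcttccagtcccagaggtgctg
Kif1c: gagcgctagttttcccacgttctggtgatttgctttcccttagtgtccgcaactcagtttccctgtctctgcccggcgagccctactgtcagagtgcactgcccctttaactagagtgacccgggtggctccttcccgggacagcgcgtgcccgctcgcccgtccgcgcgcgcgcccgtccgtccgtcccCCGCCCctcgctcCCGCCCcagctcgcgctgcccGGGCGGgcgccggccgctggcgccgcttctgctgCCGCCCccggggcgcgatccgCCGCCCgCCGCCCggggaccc

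Rab24 held 1 CACGTG and 0 GGGCGG matches in 300 bases, and Kif1c held 0 and 6. The regions share a high GC content (68.7% and 73.3%) and 32 and 41 CpG dinucleotides, where the median over transport promoters was 22. CACGTG was found in 13 of 123 promoters of the transport genes (10.6%, from 101 genes), in 9.48% of 9432 promoters of all genes named on the array and in 7.15% of all 32851 promoters. GGGCGG was found in 67.5%, 58.1% and 35.7% of them. A match is a string of letters in this window and was not tested as a binding site.

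Dync1h1, the heavy chain that carries the motor of cytoplasmic dynein 1, was at -0.25, -0.16, -0.022 and 0.009 in the brains of mice 1 to 4 and at -0.067, 0.038, 0.021 and 0.069 in their livers. The brain mean was -0.10 ± 0.12 and the liver mean 0.015 ± 0.058, with limma intervals of -0.39 to 0.18 and -0.19 to 0.22. Mice fell on both sides of 0 in each tissue.

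The intermediate chains, through which dynein binds dynactin and huntingtin, were Dync1i1 and Dync1i2. Dync1i1 had values in 2 brains only, 0.23 and 0.16 in mice 1 and 3, and was at 0.18, 0.025, -0.21 and 0.091 in liver. Dync1i2 was at -0.45, 0.001, 0.44 and 0.20 in brain and at -0.27, 0.33, 0.38 and 0.22 in liver. In both tissues mouse 1 was the only one with Dync1i2 clearly below 0, and the means were 0.046 ± 0.38 and 0.16 ± 0.30.

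Dync1li1, a light intermediate chain that binds cargo adaptors, had means of 0.12 ± 0.28 in brain and -0.063 ± 0.10 in liver. Dync2li1, the matching chain of the ciliary motor dynein 2, was at -0.26, -0.079, -0.38 and 0.84 in brain, so that its mean of 0.032 ± 0.55 came from mouse 4 alone, and was -0.24 without it. In liver Dync2li1 was at -0.046 ± 0.23. Of its 2 probes, 1 had values in only 2 livers, and the other had a liver mean of 0.11. No dynein gene had the same sign in all mice of a tissue where it was tested.

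**Figure D3:**
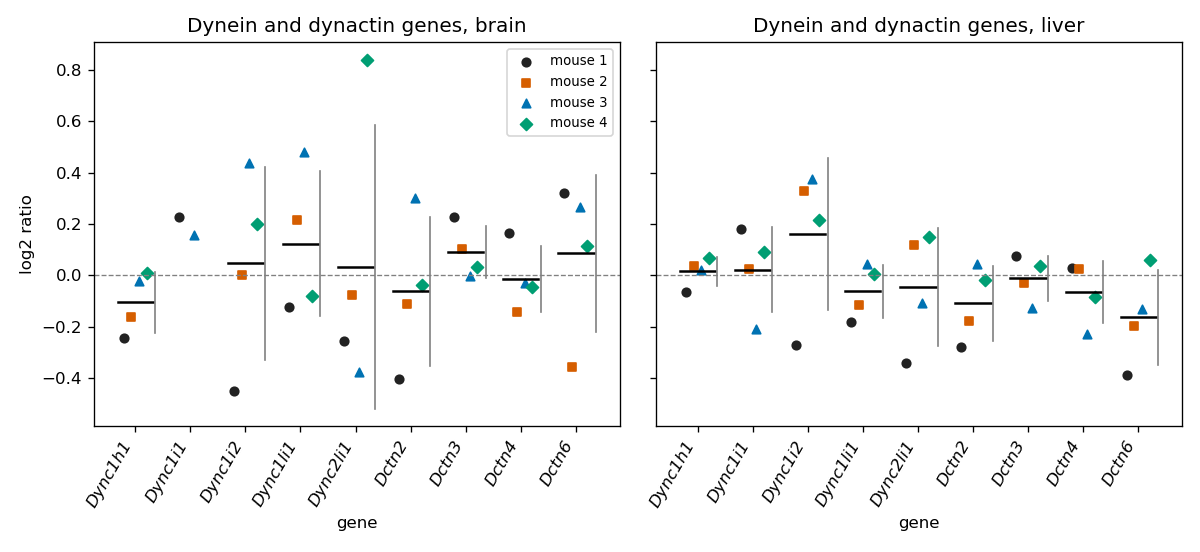
Log2 ratio (y axis) of each dynein and dynactin gene in the 4 mice, in brain (left) and liver (right); points are mice, horizontal bars are means and vertical lines are 1 SD to each side. The points of each gene fall on both sides of 0, apart from Dync1i1 in brain, which has values in 2 mice and no mean drawn.

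Of the dynactin genes, Dctn2 (dynamitin) and Dctn3 form part of the shoulder that joins the filament to dynein's arm. Dctn2 was at -0.41, -0.11, 0.30 and -0.037 in brain and at -0.28, -0.18, 0.042 and -0.020 in liver, with means of -0.063 ± 0.29 and -0.11 ± 0.15. Dctn3 was at 0.23, 0.10, -0.003 and 0.034 in brain, mean 0.091 ± 0.10, and at -0.012 ± 0.088 in liver. These subunits had opposite signs in all 4 brains.

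Dctn4 and Dctn6 sit at the pointed end of the dynactin filament. Dctn4 had means of -0.014 ± 0.13 in brain and -0.065 ± 0.12 in liver, and its 3 probes did not share a sign in brain (0.14, -0.34 and 0.16). Dctn6 was at 0.32, -0.36, 0.26 and 0.11 in brain and at -0.39, -0.20, -0.13 and 0.06 in liver. Its liver mean of -0.16 ± 0.19 was the lowest of the family, with 3 of 4 mice below 0 and an adjusted limma p of 0.600.

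Among kinesins, Kif18b had the largest shift with the same sign in every mouse. It controls microtubule length in mitosis, and brain tissue at this age holds few dividing cells. It was at -0.31, -1.06, -0.55 and -0.27 in brain and at -1.91, -0.27, -0.46 and -0.11 in liver. Every value was below 0, but mouse 2 led in brain and mouse 1 in liver. The brain mean was -0.55 ± 0.36 (limma interval -0.94 to -0.15, adjusted p = 0.999) and the liver mean -0.69 ± 0.83 (-1.43 to 0.059, adjusted p = 0.575).

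The 6 kinesins of cell division showed more scatter between brains than those of transport, with a median SD of 0.40 against 0.26, and this was not so in liver, at 0.27 against 0.34. Kif23, a kinesin of the central spindle, ranged from -1.63 to 1.94 over the 4 brains. The direction of the cell-division kinesins was divided, with 3 higher and 3 lower in each tissue.

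The kinesin-1 heavy chains Kif5a, Kif5b and Kif5c, with which huntingtin's partners link to cargo, did not pass in either tissue. Kif5a, the neuronal form, was at -0.38, 0.15, -0.97 and 0.038 in brain and at 0.98, 0.20, -0.16 and 0.031 in liver. Mouse 3 was far below the other brains and mouse 1 far above the other livers, and the means were -0.29 ± 0.51 and 0.26 ± 0.50. Of the 2 Kif5a probes, 1 had values in only 2 brains and 1 liver, so the mice were not averaged over the same probes. The other probe had means of -0.080 in brain and 0.28 in liver. Kif5b was at 0.049 ± 0.23 and -0.087 ± 0.15, and Kif5c at -0.040 ± 0.40 and 0.12 ± 0.38, in brain and liver.

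Kif21a, a motor that restrains microtubule growth, was the only kinesin with an unadjusted limma p under 0.05 in liver. It was at 0.27, 0.17, 0.15 and 0.30, mean 0.22 ± 0.075, with an adjusted limma p of 0.575. The livers lay close together and above 0, while the brains were at 0.051, -0.33, 0.22 and -0.015. The highest liver mean among kinesins with 4 mice was that of Kif12, 0.38 ± 0.48, with values from -0.075 in mouse 4 to 1.01 in mouse 1. Kifbp, a kinesin-binding inhibitor, had a liver mean of 0.86 ± 1.33 over 3 mice, from a value of 2.38 in mouse 3.

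**Figure D4:**
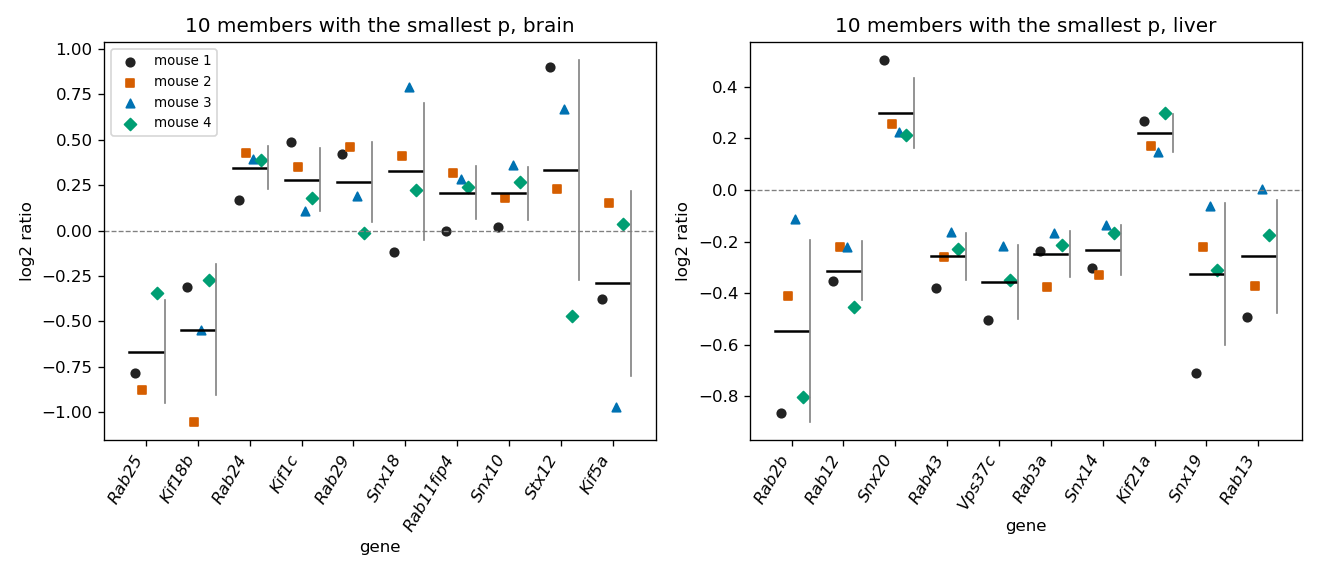
Log2 ratio (y axis) in each mouse for the 10 transport genes with the smallest limma p in brain (left) and in liver (right), ordered by p; points are mice, horizontal bars are means and vertical lines are 1 SD to each side. The liver values of Rab12, Rab43, Rab3a, Snx14 and Kif21a have a smaller SD than any gene drawn for brain, and no gene shown passed after adjustment.

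Of the Rab GTPases, Rab25 had the smallest p in brain. Rab25 is an epithelial relative of Rab11 that acts in recycling endosomes. It was at -0.78, -0.88 and -0.35 in the brains of mice 1, 2 and 4, with no value for mouse 3, and at 0.50, -0.89, 0.19 and 0.11 in liver. The brain mean was -0.67 ± 0.28 (n = 3 mice), with a limma interval of -1.09 to -0.24 and an adjusted p of 0.999. In liver mouse 2 alone was below 0, and the mean was -0.021 ± 0.60.

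Rab29, a Golgi and lysosome Rab that recruits the kinase Lrrk2, was at 0.42, 0.46, 0.19 and -0.011 in brain and at -0.53, -0.076, -0.076 and 0.22 in liver. The brain mean was 0.27 ± 0.22, and -0.009 on the Cy5 arrays. The lowest brain mean among Rabs with 4 mice was that of Rab8a, a Rab of exocytosis and cilia, at -0.36 ± 0.69, with -1.36 in mouse 4 and -0.22 to 0.23 in the others.

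In liver 4 Rab GTPases had an unadjusted limma p under 0.05 and all 4 were lower, as were 5.24% of all named genes. Rab2b, which acts between the endoplasmic reticulum and the Golgi, was at -0.86, -0.41, -0.11 and -0.80, mean -0.55 ± 0.35. Rab12, an endosomal Rab and a substrate of Lrrk2, was at -0.35, -0.22, -0.22 and -0.45, mean -0.31 ± 0.11. All mice were below 0 for both, and the spread of Rab12 was small against its mean.

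Rab43, a Rab of the Golgi, was at -0.38, -0.26, -0.16 and -0.23 in liver, mean -0.26 ± 0.091, and its 2 probes had means of -0.21 and -0.31. Rab3a, which tethers synaptic and secretory vesicles, was at -0.24, -0.38, -0.17 and -0.21, mean -0.25 ± 0.090. In brain, where Rab3a serves synaptic vesicles, it was at -0.30, 0.076, 0.51 and -0.05. Each of these 4 Rabs had an adjusted limma p of 0.575 in liver and a brain mean between -0.21 and 0.059.

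Of the other secretory Rabs, Rab3d was also below 0 in every liver (-0.26 ± 0.23), while Rab3b was at 1.25, 0.22, 0.15 and 0.043, mean 0.42 ± 0.56, with mouse 1 far above the rest. Of the 6 early endosome Rabs 5 were lower in liver, among them Rab5a (-0.21 ± 0.19) and Rab5c (-0.23 ± 0.23), while Rab5b was above 0 in every liver (0.093 ± 0.048). The gene means of the 3 Rab5 forms thus had no common direction. The probes of Rab5b differed, however, with liver means of -0.009 and 0.20. Rab4b, a recycling Rab, had the lowest liver mean, -0.69 ± 0.92, with -1.96 in mouse 1 and 0.21 in mouse 4.

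Rab11a, the recycling Rab on whose activation huntingtin is known to act, had means of -0.11 ± 0.28 in brain and 0.072 ± 0.15 in liver. Rab7 of late endosomes was at -0.092 ± 0.42 and -0.15 ± 0.27. The Rab7 probes had means of 0.063, 0.22, -0.67 and 0.017 in brain and -0.27, -0.021, -0.17 and -0.15 in liver. Neither Rab11a nor Rab7 had the same sign in all mice of a tissue. Of the Rab partners, Rab11fip4, an effector of Rab11, was highest in brain at -0.003, 0.32, 0.28 and 0.24, mean 0.21 ± 0.14, with 3 of 4 mice above 0. Rab3gap1, the catalytic subunit that switches Rab3 off, was at -0.015 ± 0.17 in brain and -0.14 ± 0.11 in liver. Rab3ip, an exchange factor for Rab8, was at 0.16 ± 0.20 and 0.093 ± 0.19, and Rab5if was lowest in liver at -0.19 ± 0.28.

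The 20 Vps genes were grouped by complex. All 8 genes of the ESCRT complexes and the Vps4 ATPases, which bud vesicles into endosomes, were lower in liver, with a median of -0.097 (-0.029 in brain, where 5 were lower). All 5 of retromer and retriever, which return cargo from endosomes, were lower in liver, with a median of -0.090 (-0.050 in brain, where 3 were lower). Of the 4 genes of the tethering complexes HOPS and CORVET 3 were lower in liver, and the other 3 Vps genes (Vps45, Vps53 and Vps72) were higher, with a median of 0.077. These groups by role were drawn up with earlier results known, and 56.6% of all named genes were lower in liver.

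Vps37c, a subunit of ESCRT-I, was the only Vps gene with an unadjusted limma p under 0.05, at -0.50, -0.22 and -0.35 in the livers of mice 1, 3 and 4, mean -0.36 ± 0.14 (n = 3 mice). It had an adjusted limma p of 0.575, and was at 0.43 on the Cy5 arrays. Its relatives Vps37a and Vps37b were at -0.062 ± 0.12 and -0.12 ± 0.22 in liver. The retromer subunit Vps29 was at -0.29, -0.081, -0.087 and -0.060 in liver and at -0.047, 0.54, 0.24 and -0.061 in brain, the highest brain mean of the family (0.17 ± 0.29). Vps26a, also of retromer, had the lowest brain mean, -0.30 ± 0.72, and it was at 0.037 without mouse 3, which was at -1.33.

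The HOPS tethering complex joins late endosomes and lysosomes. It held both the lowest and the highest liver means among Vps genes with values in all 4 mice. Vps39 was at -0.78, -0.22, -0.31 and 0.032, mean -0.32 ± 0.34, and Vps33a at -0.051, 0.46, 0.35 and 0.13, mean 0.22 ± 0.23. These subunits of the same complex were on opposite sides of 0 in the livers of mice 2 and 3. The 2 probes of Vps33a differed, however, with liver means of 0.035 and 0.41, and Vps39 was at 0.056 on the Cy5 arrays. Vps72, which carries the family name but belongs to a chromatin-remodelling complex, was above 0 in every liver (0.077 ± 0.046).

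Sorting nexins bind endosomal lipids and shape tubules. Snx20, which binds the leukocyte adhesion protein Selplg, was at 0.50, 0.26, 0.22 and 0.21 in liver, mean 0.30 ± 0.14, with an adjusted limma p of 0.575. All livers were above 0, with mouse 1 apart from the rest, but on the Cy5 arrays the mean was -0.069. Snx14 and Snx19, which sit in the endoplasmic reticulum membrane, were lower in every liver. Snx14 was at -0.30, -0.33, -0.13 and -0.17, mean -0.23 ± 0.096, and its 2 probes had means of -0.22 and -0.24. Snx19 was at -0.71, -0.22, -0.062 and -0.31, mean -0.33 ± 0.27, and at 0.55 on the Cy5 arrays.

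In brain the sorting nexin with the highest mean was Snx18, a membrane-bending protein of endocytosis, at -0.12, 0.41, 0.79 and 0.22, mean 0.33 ± 0.38. Snx10, which acts in vacuole formation, was at 0.018, 0.18, 0.36 and 0.27 in brain. For both, mouse 1 was lowest and mouse 3 highest, as for all named genes. The retromer partners Snx1, Snx2 and Snx5 had brain means of 0.10, -0.013 and -0.030 and liver means of -0.055, -0.0004 and 0.072. Snx3, the retromer adaptor, was at -1.20 in the liver of mouse 1 and between -0.035 and -0.018 in the others.

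No syntaxin had an unadjusted limma p under 0.05 in either tissue. Stx1a, the synaptic syntaxin, was at -0.27, 1.01, 0.17 and -0.051 in brain, mean 0.22 ± 0.56, and at 0.044 ± 0.24 in liver. Stx12, an endosomal syntaxin, was highest in brain at 0.90, 0.23, 0.67 and -0.47, and its 2 probes differed, with means of 0.001 and 0.81. Stx6, which acts between endosomes and the Golgi, varied least between mice. Its liver mean was 0.001 ± 0.035 and its brain mean -0.013 ± 0.10. Its probes did not share a sign, with means of -0.070, 0.18 and -0.16 in brain and 0.10, 0.045 and -0.15 in liver.

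The sign of most single values differed between the dye orientations. The same sign on the arrays of both orientations was found for 34 of 123 transport genes in brain (27.6%, against 33.3% of all named genes) and 48 of 123 in liver (39%, against 36%). Across genes, the means of the orientations were inversely related, with Spearman's rho of -0.41 in brain and -0.36 in liver (-0.37 and -0.38 over all named genes). Genes with 2 or more probes gave probe means of the same sign in 18 of 46 cases in brain (39.1%, against 45.2%) and 21 of 45 in liver (46.7%, against 46.9%). The transport genes were thus near the whole array in how often a sign was repeated, which was in less than 50% of genes by either measure.

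**Figure D5:**
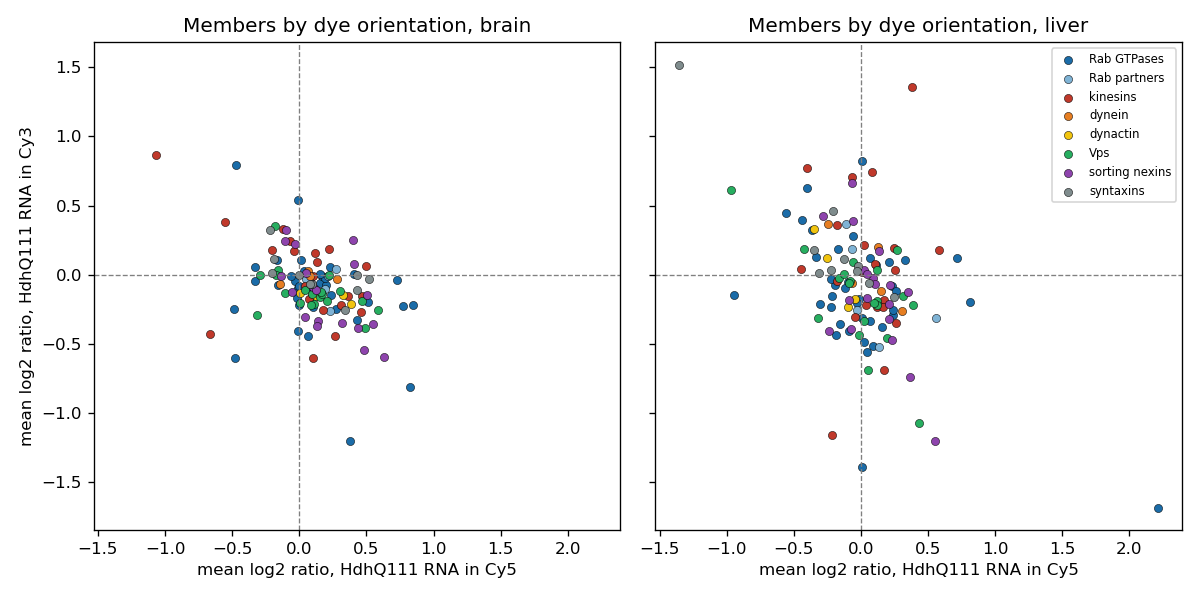
Mean log2 ratio over arrays with HdhQ111 RNA in Cy5 (x axis) against those with it in Cy3 (y axis) for each transport gene, in brain (left) and liver (right), coloured by family. In brain 34 of 123 genes, and in liver 48 of 123, lie on the same side of 0 for both orientations.

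Genes that work with these families were described from lists of known partners. Of 28 huntingtin partners and motor adaptors, 0 passed limma's test in either tissue. Hap1 was at -0.26, -0.032, 0.60 and 0.21 in brain and at 1.01, 0.55, 0.33 and -0.12 in liver, with means of 0.13 ± 0.37 and 0.44 ± 0.47 and an adjusted limma p of 0.575 in liver. The adaptor Trak1, which links mitochondria to kinesin, was above 0 in all 4 brains (0.26 ± 0.15) and below 0 in the 3 livers measured (-0.16 ± 0.090). The kinesin light chain Klc1 was below 0 in every liver, at -0.31 ± 0.16, and at 0.038 ± 0.18 in brain. Its adjusted limma p in liver was 0.575.

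Among other SNARE proteins (20 tested in brain, 19 in liver) and Rab regulators and effectors (19 in each), 0 passed. Vamp8, a SNARE of endosomes and secretory granules, had the smallest p of these lists, at -2.10, -2.43 and -0.90 in the brains of mice 2, 3 and 4, mean -1.81 ± 0.80 (n = 3 mice), with an adjusted limma p of 0.835. In liver Bet1, a SNARE between endoplasmic reticulum and Golgi, was at -0.36 ± 0.15, Snap23, a plasma membrane SNARE, at 0.41 ± 0.37 and the actin motor Myo5a at -0.24 ± 0.15, each with an adjusted limma p of 0.575.

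Coat and sorting genes were lower in liver in 31 of 37 cases (83.8%, against 56.6% of all named genes), with a median of -0.13, and 0 of 37 passed. The set's liver medians in mice 1 to 4 were -0.19, -0.21, -0.047 and -0.016, so mice 1 and 2 led. Those with an unadjusted limma p under 0.05 were Sec23b (-0.59 ± 0.51) of the COPII coat, Cope (-0.37 ± 0.17) of the COPI coat, Hgs (-0.31 ± 0.19) of ESCRT-0, the clathrin adaptor subunit Ap2s1 (-0.30 ± 0.22) and Chmp2a (-0.30 ± 0.24) of ESCRT-III. These 5 of 37 were lower in all 4 livers. Of all named genes, 5.24% were lower at that p and 14.1% were below 0 in every liver with a value. In brain 15 of the 37 were lower, and Sec24b of COPII was at 0.91 ± 0.72.

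Markers of cell types were set beside these values. In brain all 6 pituitary markers were lower, with summary medians of -2.69 to -1.33 in the 4 mice, and Prl (-4.28 ± 0.27) and Pomc (-2.75 ± 0.52) passed limma's test with adjusted p values of 0.00547 and 0.026. Gh had the lowest brain mean of them, -4.35 ± 1.38, and did not pass, with an adjusted limma p of 0.143. The 7 neuron markers had a median of 0.012 in brain. Lists for astrocytes, oligodendrocytes, microglia and Kupffer cells, and blood were also examined, and 0 of their genes passed in either tissue. In liver 7 of 8 hepatocyte markers were lower, with a median of -0.18, where Rab GTPases, Vps and coat genes were also lower. The direction of these markers depended on the dye, with a liver median of 0.13 on the Cy5 arrays and -0.48 on the Cy3 arrays. Whether pituitary tissue or hepatocyte RNA had a part in any value of the transport genes was not tested. Ratios give no level, so the tissue labels could be seen only in the scatter, which was larger for hepatocyte markers in brain (median SD 0.79) than in liver (0.17), and larger for neuron markers in liver (0.34) than in brain (0.19).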

How the data were processed

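Brain and liver RNA of 4 HdhQ111/+ mice was compared with wildtype pools on dye-swapped 2-colour arrays. The authors deposited 1 log2 ratio for each of 20794 probes on an array, already normalized. The scanner, background correction and normalization are not given in the sources used here, and the values were not centred. Each array had 19530 to 20584 values, with medians of -0.128 to 0.246. Across arrays 1496 values of at least 16.492 in size, which look like ratios to a floor, were set missing (the others were at most 8.297), so values over 10 were left out. They and empty cells made up 1.85% of the cells of transport genes in brain and 1.92% in liver. No spot intensities were used, so background is unknown, and precision is limited by the number of arrays.

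The platform table gave 12771 probes 1 symbol, and the symbol of probe n named value row n + 11 (12760 rows). Rab and Stx had to be followed by a digit, and any symbol that began with Kif, Dync, Dctn, Vps or Snx was taken. Probes of a gene were averaged, and a mouse needed both arrays. Mean values were rounded to 9 decimals, so that an exact 0 has no sign. Dye differences correlated between tissues (Spearman's rho 0.387 over 20476 probes) and pair means did not (-0.0099), so the pair mean was taken as the genotype ratio. Mouse means were tested against 0, two-sided, with limma 3.58.1 (lmFit, eBayes) in R 4.3.3, in genes with values in 3 or more mice, with Benjamini-Hochberg adjustment over all named genes at 0.05. The steps were tested on simulated data. The tissue difference was fitted over the mouse values of both tissues. The same mice gave both tissues, so the mouse is a valid block. Deviations of a mouse's brain and liver from the tissue means had a rho of 0.071, -0.0036, 0.10 and 0.024 for mice 1 to 4.

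The gene families, partner lists and markers were chosen with earlier results of these data known. The text names every dynein and dynactin gene, the 10 genes with the smallest p in each tissue and the 5 for the difference, the lowest and highest of each family among genes with values in all 4 mice, and partner genes with an unadjusted p under 0.05. Other genes, such as Hap1, Rab11a, Trak1 and Kif23, were named for their role or after their values were seen.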

Additional observations from a re-analysis of the deposited data

Results flagged for a closer look

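Of 98 groups of 4 mice examined, 6 held a mouse whose gap to the nearest other, as a share of the group's range, was above Dixon's 95% critical value. Chance flags about 1 in 20 groups. In the brain Rab24 was at 0.17 in mouse 1 against 0.39 to 0.42 in the others. In the liver mouse 1 stood apart for Rab3b (1.25), Snx20 (0.501), Snx3 (-1.204) and Vps29 (-0.2945). The dynactin median in liver was 0.0076 in mouse 4 and between -0.13 and -0.11 in the others. Mouse 1 was thus the one apart in 5 of the 6, and its liver also had the lowest median over all named genes, at -0.073. Its liver arrays also had the widest spread over all probes. Their interquartile ranges were 0.867 (Cy5) and 1.275 (Cy3), against 0.383 to 0.728 on the other liver arrays. The cause was not tested.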

How the results depend on the processing

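In each setting tried 0 transport genes passed after adjustment in brain, in liver and for the difference, and the lowest adjusted limma p of a named gene was 0.16, on Cy3 arrays only. The difference with the mouse as a replicate block kept 0 calls, and Kif1c and Rab24 stayed at -0.455 and -0.456. Leaving out each mouse in turn also gave 0 calls (0 to 0). Counts at an unadjusted limma p under 0.05 moved more. Those in brain went from 3 to 10 on Cy5 arrays, 10 on Cy3 arrays, 6 without the row shift and 0 without mouse 2, those in liver from 9 to 20 on Cy3 arrays and 14 without the shift, and those for the difference from 2 to 7, 12, 8 (Cy5, Cy3, no shift) and 1 to 7 without a mouse. Of all named genes, the 3 calls in brain became 0 to 3 and the 2 for the difference 0 to 3.

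Family medians moved by more than the spread between mice under dye orientation and the row shift. On Cy5 arrays brain sorting nexins were at 0.17, and in liver the Rab GTPases at 0.020, Vps at 0.028, dynactin at -0.18, sorting nexins at 0.172 and syntaxins at -0.088. On Cy3 arrays the brain values were -0.0655 for Rab partners, -0.138 for dynactin and -0.114 for sorting nexins, and the liver values -0.235 for Rab GTPases, -0.00208 for dynactin, -0.157 for sorting nexins and 0.060 for syntaxins. Without the row shift brain Rab partners were at -0.152, and in liver dynactin at 0.042, dynein at -0.145 and kinesins at -0.097. Single genes were not compared without the shift, since the symbol then names another spot. Without a mouse, family means ranged from -0.060 (dynein) to 0.17 (Rab partners) in brain and from -0.12 (dynactin) to 0.052 (Rab partners) in liver.

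Genes reversed on Cy3 arrays in brain were Dync2li1 (-0.012), Stx12 (-0.030), Dync1li1 (-0.031), Rab24 (-0.035), Rab11fip4 (-0.101), Dctn3 (-0.147), Dctn6 (-0.213), Vps29 (-0.251) and Stx5a (0.012), and in liver Dync1h1 (-0.119), Dync1i1 (-0.265), Stx16 (0.0115), Dctn4 (0.122), Rab25 (0.32), Dctn3 (0.327) and Dync2li1 (0.367). On Cy5 arrays they were Rab29 (-0.009), Dctn2 (0.00275), Snx3 (0.04), Kif5a (0.103), Dctn4 (0.121) and Rab3gap1 (0.231) in brain, and Snx20 (-0.0685), Rab3ip (-0.110), Stx12 (-0.209), Rab4b (0.0085), Snx18 (0.0425), Vps39 (0.056), Rab5if (0.132), Rab24 (0.155), Vps37c (0.433) and Snx19 (0.549) in liver. With 1 array enough, Rab11fip4 in brain was at -0.0725 and Dync2li1 in liver at 0.111. With arrays centred, Dctn3 in liver was at 0.0015, and with the median of probes Dctn4 in brain was at 0.098. Without a mouse, brain means crossed 0 for Dctn2 (-0.185 to 0.051), Dctn4 (-0.074 to 0.029), Dync1i2 (-0.085 to 0.21), Dync2li1 (-0.24 to 0.17), Rab3gap1 (-0.099 to 0.033), Stx5a (-0.20 to 0.081) and Vps26a (-0.51 to 0.037). Liver means did for Dctn3 (-0.041 to 0.026), Dync1h1 (-0.0028 to 0.042), Dync1i1 (-0.031 to 0.099), Dync2li1 (-0.11 to 0.053), Rab25 (-0.19 to 0.27), Rab29 (-0.23 to 0.021) and Stx16 (-0.26 to 0.039). The cause was not tested. Current symbols differed from the platform's for 0 probes, so that setting changed nothing.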
